A study of Xenopus laevis with 2 samples.

Results

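Stathmins and the growth-associated protein gap43 were followed in the axonal transcriptome of Xenopus laevis retinal ganglion cells (RGCs), the neurons that connect the eye to the brain. The 5 genes stmn1, stmn2, stmn3, stmn4 and gap43 were picked by symbol, not by their measured level, though with earlier results of these data known. They are listed under 10 of the 49349 gene names, 1 L and 1 S homeolog each. L and S mark the chromosome sets of the allotetraploid genome, and homeologs were kept apart. Sequencing covered 2 replicate libraries of RGC axons, with no treatment named in the labels and no second condition. Whole eyes of embryos at stages 33/34 to 37/38 were pooled and cultured on a filter with 1 µm pores, which axons cross and cell bodies do not. The eyes were then taken off, and cDNA made from the RNA of the remaining axons was amplified by PCR. Cell bodies, whole eyes and embryos were not analysed here, so each value describes a level in axons, not a change against another compartment. Levels are in FPKM, the fragments of a transcript scaled to its length and to the size of the library. This scaling is meant to let genes be set side by side, but amplification can shift the values of single genes. With 1 condition and 2 libraries no test between groups was possible, and the spread given is that between these libraries.

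Stathmins bind dimers of alpha- and beta-tubulin, hold them away from microtubule ends and promote microtubule shrinkage, and their phosphorylation relieves this action. Stmn1 (also called op18) is cytosolic and is found in many dividing and neural cells. Stmn2 (scg10), stmn3 (sclip) and stmn4 carry a lipid-anchored N-terminal extension that places them on vesicles and growth cone membranes of neurons. In mammals, stmn2 is known as an axon growth and maintenance factor, and its mRNA is misprocessed in human motor neurons that lose the RNA-binding protein TARDBP. Gap43 is not a stathmin but a palmitoylated membrane protein of growth cones that binds calmodulin and is phosphorylated by protein kinase C. Its mRNA is a classic example of a transcript that is carried into growing axons.

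Of the 10 names, 4 had an FPKM over 1 in both libraries, against 4.39% of all gene names and 8.55% of those that carry a gene symbol. They were stmn2.L, stmn2.S, stmn1.L and gap43.L. Another 5 names were listed at 0 in both libraries, namely stmn1.S and both homeologs of stmn3 and of stmn4. The last, gap43.S, had a value below 1 in replicate 1 and was listed at 0 in replicate 2. A value of 0 is common in these files, since 93.2% of all gene names were at 0 in both libraries. It can also be a failed estimate. Among 17 listed genes of general use, picked after the data were seen, 11 had a name over 1 FPKM in both libraries. The genes pgk1, tpi1, cox4i1 and tbp were at 0 in both libraries under every name they have. A gene at 0 is therefore only described as listed at 0. Fewer axons that carry an mRNA and less of that mRNA per axon cannot be told apart in these bulk values.

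**Figure D1:**
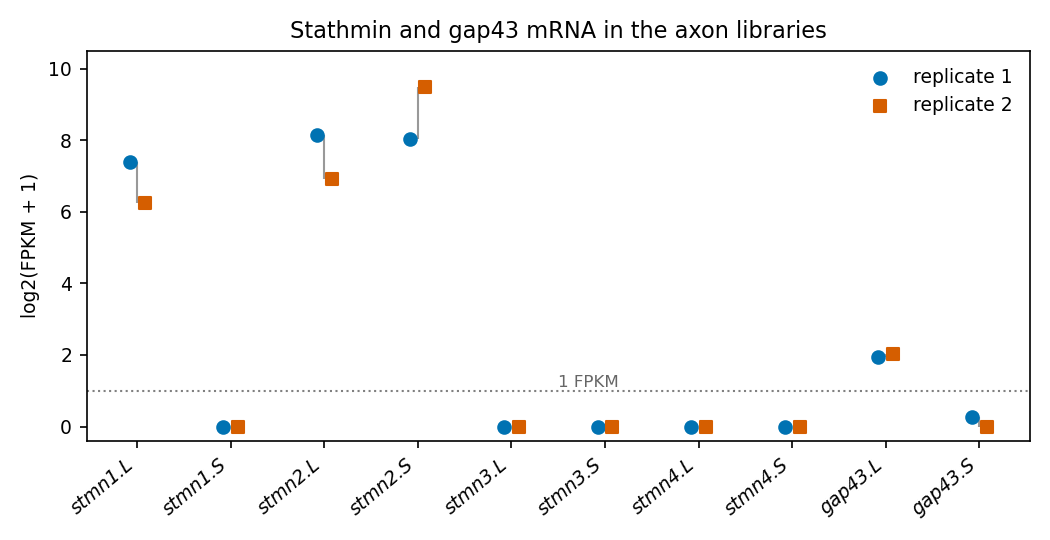
Level of each stathmin and gap43 homeolog as log2(FPKM + 1), with circles for replicate 1 and squares for replicate 2 and a grey line joining the libraries where they differ. The dotted line marks 1 FPKM. Both stmn2 homeologs and stmn1.L lie far above it in both libraries, gap43.L lies just above it, and the other 6 names lie at or near 0.

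Stmn2 had the highest FPKM of the 5 genes. Its 2 homeologs together gave 543 and 838 FPKM in replicates 1 and 2, an average of 690.5 ± 209 FPKM (SD, n = 2). The gene held 76.2% of the FPKM summed over the 10 names in replicate 1 and 91.5% in replicate 2. Stmn2.S, on chromosome 6S from 100654374 to 100678456 of the v9.2 genome as the files list it, had 262 and 719 FPKM in replicates 1 and 2. It ranked 321 in replicate 1 and 187 in replicate 2, counting from the highest of all gene names. Stmn2.L, on chromosome 6L from 123859956 to 123882482, had 280 and 120 FPKM in replicates 1 and 2. It ranked 310 and 576 in replicates 1 and 2. In replicate 1, 10.2% of the names with a value above 0 stood higher than stmn2.S and 9.82% stood higher than stmn2.L. In replicate 2 these shares were 6.47% for stmn2.S and 20.0% for stmn2.L. The ranges of the homeologs over the libraries overlapped.

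The 2 stmn2 homeologs moved in opposite directions between the libraries. Stmn2.S was 2.74-fold higher in replicate 2, and stmn2.L was 2.34-fold higher in replicate 1. The L homeolog therefore made up 51.7% of stmn2 FPKM in replicate 1 but 14.3% in replicate 2. The difference L minus S was 0.10 in replicate 1 and -2.58 in replicate 2 on the log2(FPKM + 1) scale. Among the 218 homeolog pairs with both names over 1 FPKM in both libraries, 22.5% had L and S in opposite order in the libraries. A shift of L minus S larger than that of stmn2 was seen in 17.4% of these pairs, whose median shift was 1.08 on the same scale. Where the homeologs are close in sequence, a read may be counted for the wrong one, so the split of stmn2 between L and S is uncertain. The sum of the homeologs had a 1.55-fold difference between the libraries. By construction, the ratio of the sums lies between the ratios of the homeologs, which moved in opposite directions. Whether reads were counted for the wrong homeolog, and whether this shifted the sum, was not tested.

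Stmn1 was the second gene by level, and its signal stood under 1 homeolog. Stmn1.L, on chromosome 2L from 59890932 to 59902701, had 167 and 75.0 FPKM in replicates 1 and 2, an average of 121 ± 64.7 FPKM (SD, n = 2). It ranked 425 in replicate 1 and 738 in replicate 2. Stmn1.S, on chromosome 2S from 62222031 to 62232905, was listed at 0 in both libraries. Of the 914 homeolog pairs with at least 1 name over 1 FPKM in both libraries, 60.4% likewise had the other name at 0 in both. On the log2(FPKM + 1) scale, stmn1 and gap43 differed by more than 2-fold between L and S in the same direction in both libraries, as did 87.7% of the 914 pairs, and stmn1 did so by more than 10-fold, as did 44.2%. Stmn2 belonged to the 23.9% of these pairs with both names over 1 FPKM in both libraries. Stmn2 exceeded stmn1 in both libraries, by 3.26-fold in replicate 1 and by 11.2-fold in replicate 2 with homeologs summed, and the ranges of the 2 genes did not overlap. By single names, stmn2.S lay above stmn1.L in both libraries and their ranges did not overlap, whereas the ranges of stmn2.L and stmn1.L did.

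Gap43 was listed far below both of these stathmins. Gap43.L, on chromosome 2L from 3677146 to 3710237, had 2.85 and 3.11 FPKM in replicates 1 and 2, an average of 2.98 ± 0.185 FPKM (SD, n = 2). It ranked 1985 and 2075 in replicates 1 and 2, so that 63.0% of the names with a value above 0 stood higher in replicate 1 and 72.2% in replicate 2. Gap43.S, on chromosome 2S from 27028082 to 27055834, had 0.197 FPKM in replicate 1 and was listed at 0 in replicate 2. Of the 495 names with a value above 0 and below 0.3 FPKM in replicate 1, 58.6% were listed at 0 in replicate 2. Values this low were reported less often in replicate 2, with 86 names above 0 and no higher than that 0.197 FPKM, against 397 names in replicate 1. With homeologs summed, stmn2 stood 178-fold above gap43 in replicate 1 and 269.5-fold above it in replicate 2. Stmn1 stood 54.7-fold and 24.1-fold above gap43 in replicates 1 and 2. The low gap43 sum may miss gap43 mRNA, which was not tested, so the size of these folds is uncertain.

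**Figure D2:**
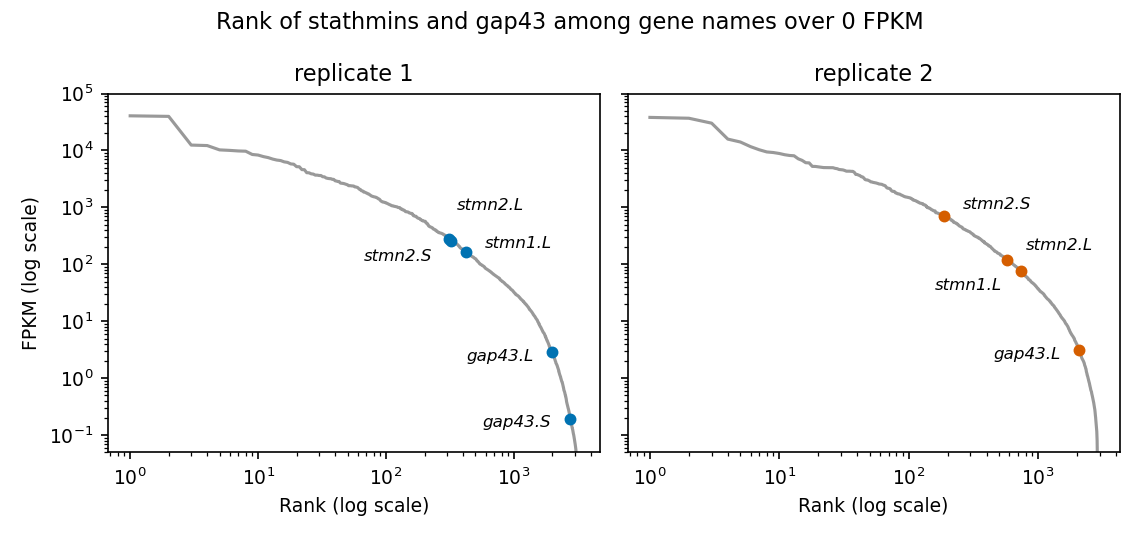
FPKM against rank for all gene names with a value above 0, both on log scales, with replicate 1 in the left panel and replicate 2 in the right panel. Points are the stathmin and gap43 names, and values under 0.05 FPKM are not drawn. The stmn2 homeologs lie side by side at ranks 310 and 321 in replicate 1 and apart, at ranks 187 and 576, in replicate 2, while gap43.L lies at ranks 1985 and 2075.

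The remaining stathmins had no value above 0 in either library. Stmn3.L, on chromosome 9_10L from 18222332 to 18229500, and stmn3.S, on chromosome 9_10S from 16840197 to 16847836, were listed at 0 in both libraries. So were stmn4.L, on chromosome 5L from 154075139 to 154121192, and stmn4.S, on chromosome 5S from 132842944 to 132966937. The interval given for stmn4.S overlaps that given for ptk2b.S, a kinase gene, so it may not be the interval of stmn4.S alone. No other listed name overlapped a stathmin or gap43 interval. Stmnd1, which codes for a protein with a stathmin domain and does not belong to the 5 genes, was at 0 as well under both of its names. The genes with a value above 0 fell in the order stmn2, stmn1 and gap43 in each library, and stmn3 and stmn4, listed at 0, were given no place.

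Together the 10 names took 0.115% of all FPKM in replicate 1 and 0.126% in replicate 2. The average of the libraries was over 100 FPKM for stmn2.S, stmn2.L and stmn1.L, 3 of the 10 names, against 1.24% of all gene names. Among names over 1 FPKM in both libraries the share was 28.1%. Between the libraries, stmn2.S was the only stathmin or gap43 name more than 2-fold higher in replicate 2, a difference passed by 26.3% of the 2168 names over 1 FPKM in both libraries. Stmn1.L and stmn2.L were more than 2-fold lower in replicate 2, as were 22.6% of those names. Their differences, replicate 2 minus replicate 1, were -1.14 and -1.22 on the log2(FPKM + 1) scale, that of stmn2.S was 1.45 and that of gap43.L was 0.09. The median absolute difference of all names over 1 FPKM in both libraries was 0.98, so the 3 high stathmin names differed somewhat more than the typical name and gap43.L less. Larger absolute differences were found in 41.1% of these names for stmn1.L, in 37.1% for stmn2.L, in 27.6% for stmn2.S and in 94.8% for gap43.L.

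**Figure D3:**
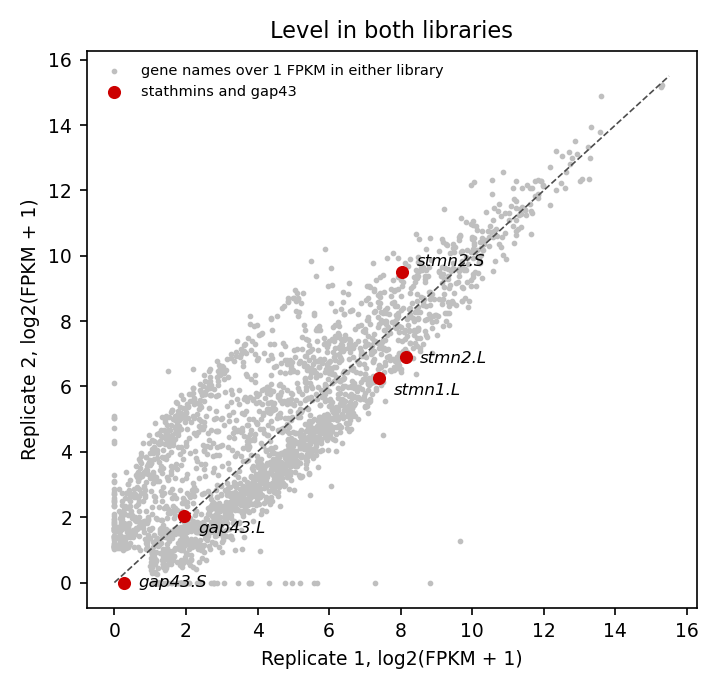
Level in replicate 2 against level in replicate 1, both as log2(FPKM + 1), for the 2593 gene names over 1 FPKM in either library (grey) and for the stathmin and gap43 names above 0 (red). The dashed line marks equal values. Stmn2.S lies above the line, stmn2.L and stmn1.L lie below it and gap43.L lies close to it. Across the grey names Pearson r was 0.85, a value across genes, which are not independent replicates.

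The names whose levels lay nearest to each of the 4 detected names were found by the distance of log2(FPKM + 1) over the 2 libraries, which with 1 condition is a likeness in level only. For stmn1.L they were sars.L (167 and 80.5 FPKM in replicates 1 and 2), naa25.L and pcna.L, at distances of 0.10 to 0.15. For stmn2.L they were pim1.L (278 and 114 FPKM), snrpe.S and atp5g1.L, at 0.07 to 0.13. For stmn2.S they were naca.2.L (242 and 656 FPKM), fcf1.S and col2a1.L, at 0.17 to 0.27. For gap43.L they included frmd4a.L (2.61 and 3.09 FPKM) and pmepa1.S, each at 0.09.

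Proteins that act with stathmins or with gap43 were looked up on lists of known partners. Alpha- and beta-tubulins, the partners of stathmins, had 2 of 24 names over 1 FPKM in both libraries, close to the 8.55% of all symbol-bearing names. Tubb4a.S had 27.4 and 11.9 FPKM in replicates 1 and 2, and the row shared by both tubb2b homeologs had 2.47 and 30.4 FPKM. The 24 tubulin names summed to 38.2 and 42.9 FPKM in replicates 1 and 2, below stmn2 alone in either library. Only 13 of the 16 tubulin symbols looked up were found, and 18 of the 24 names were listed at 0 in both libraries. The sum may therefore miss tubulin mRNA, and whether stmn2 mRNA exceeds that of all tubulins cannot be told from it. Tubb3, the neuronal beta-tubulin, was listed at 0 in both.

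Among other proteins that bind or regulate microtubules, 4 of 59 names (6.78%) passed the same limit, against 8.55% of all symbol-bearing names. Kif2a.S, a kinesin that takes tubulin off microtubule ends, had 177 and 164 FPKM in replicates 1 and 2, a level near the upper end of the range of stmn1.L. Dpysl3, a collapsin response mediator, had 28.8 and 12.8 FPKM on a row shared by its homeologs. Mapre3.L, a plus-end binding protein, had 23.2 and 13.5 FPKM, and spast.L, which severs microtubules, had 6.64 and 4.40 FPKM. Of the 35 listed symbols, 26 were at 0 in both libraries, including mapt, map1b, map2 and dcx, which mark neuronal microtubules.

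The list of GAP43-like membrane proteins and calmodulins had 4 of 11 names (36.4%) over 1 FPKM in both libraries. The share of all symbol-bearing names was 8.55%. Marcks, which like gap43 is a membrane-bound target of protein kinase C that binds calmodulin, was far above it. Marcks.S had 6307 and 6094 FPKM in replicates 1 and 2 and ranked 16 in each, and marcks.L had 1950 and 2562 FPKM. The row of calm2.L, a calmodulin gene, had 2.20 and 1.78 FPKM. Basp1.L, the other close analog of gap43, had 0.154 FPKM in replicate 1 and was listed at 0 in replicate 2.

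RNA-binding proteins known in mammals to bind gap43 mRNA had 5 of 9 names (55.6%) over 1 FPKM in both libraries. The share of all symbol-bearing names was 8.55%. Khsrp, which destabilizes mRNAs with AU-rich elements, had 2408 and 2796 FPKM for khsrp.S and 31.9 and 18.4 FPKM for khsrp.L in replicates 1 and 2. Elavl1 (HuR), a stabilizing factor, had 1524 and 739 FPKM for its S homeolog and 354 and 267 FPKM for its L homeolog. Elavl2.S had 24.3 and 9.01 FPKM. Elavl4 (HuD), the neuronal factor that stabilizes gap43 mRNA, was listed at 0 in both libraries, as were elavl3 and pcbp1. Of the 7 symbols looked up, 6 were found and igf2bp1 was not.

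**Figure D4:**
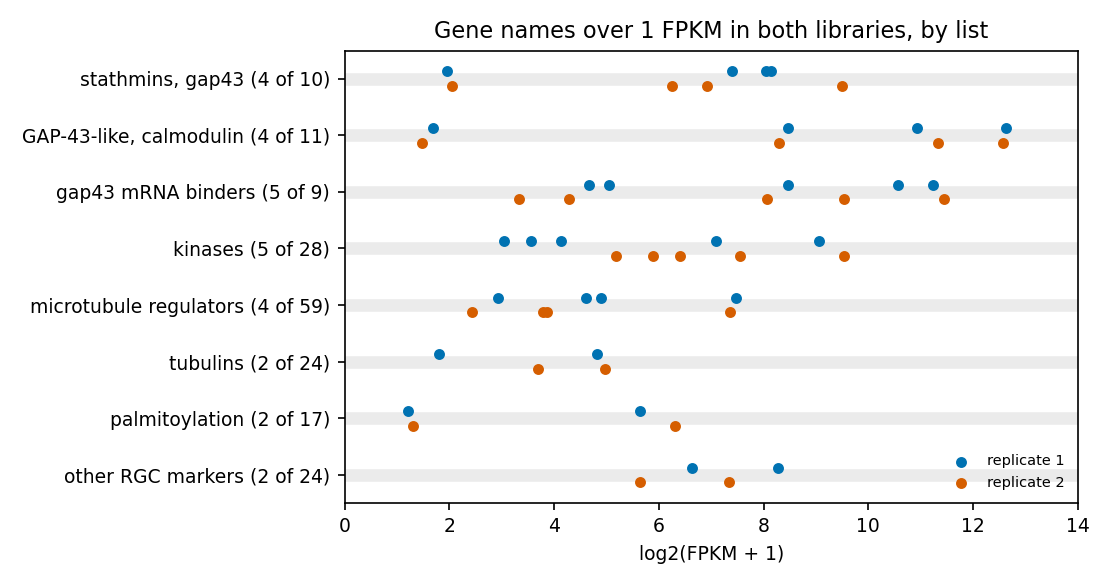
Level of each gene name over 1 FPKM in both libraries as log2(FPKM + 1), by list, with replicate 1 drawn above replicate 2 in each row and the number of names over the limit of those listed in brackets. The 3 high stathmin names, with points from 6.25 to 9.49, exceed every tubulin point, whereas the highest points of the GAP43-like list, those of marcks.S, exceed every stathmin.

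Of the kinases known to act on stathmins or on gap43, 5 of 28 names (17.9%) were over 1 FPKM in both libraries. The share of all symbol-bearing names was 8.55%. The highest was mapk8.L (JNK1), a stathmin kinase, with 534 and 738 FPKM in replicates 1 and 2. Camk2d.L, a calmodulin-dependent kinase, had 135 and 186 FPKM. The protein kinase A subunits prkacb.L and prkaca had 16.6 and 57.9 FPKM and 10.8 and 35.2 FPKM. The protein kinase C genes prkca, prkcb and prkce were at 0 in both libraries. Of the enzymes that add or remove palmitate, 2 of 17 names (11.8%) passed, both of lypla2, a thioesterase that takes palmitate off proteins. Lypla2.L had 48.5 and 77.8 FPKM in replicates 1 and 2, and lypla2.S had 1.32 and 1.47 FPKM.

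Other markers of RGCs and their axons were read beside stmn2 and gap43. Of 24 names, 2 (8.33%) were over 1 FPKM in both libraries, against 8.55% of all symbol-bearing names. These markers thus passed about as often as named genes in general, so the count does not check the label. The 2 names were alcam.S (308 and 161 FPKM in replicates 1 and 2) and rbpms2.L (98.5 and 48.9 FPKM). Of the 16 listed symbols, 14 were at 0 in both libraries, among them nefl, nefm, isl1, pou4f2, thy1 and l1cam. Of 104 names of markers of 10 other sources, 6 (5.77%) passed the same limit, against the same 8.55%. They were dct of pigment epithelium, glul and rlbp1.L of Müller glia, both names of col1a1 of connective tissue, and pcna of dividing cells. Pcna.L (150 and 74.3 FPKM) and dct.L (86.8 and 63.9 FPKM) were the highest of these. No marker of photoreceptors, other retinal neurons, lens, blood, muscle or epidermis passed. Stmn1 is also expressed by dividing cells, and the nearest levels to stmn1.L included pcna.L. The 10 names of markers of dividing cells, of which pcna.L alone passed, summed to 149.96 and 74.5 FPKM in replicates 1 and 2. Of their 5 symbols, top2a, mcm2 and ccnb1 were at 0 in both libraries and mki67.L had at most 0.117 FPKM. The part of such cells in the level of stmn1 was not tested.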

How the data were processed

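RNA of axons from pooled embryonic eyes was reverse-transcribed, amplified by a PCR protocol made for single cells and sequenced in 2 libraries. Per the labels and the study's methods, the authors used HISAT2 2.1.0 for mapping to the v9.2 genome of X. laevis and Cufflinks 2.1.1 to estimate FPKM, and each library has its own file of deposited FPKM values. Intervals are on that build, as the files list them, and the gene annotation is not given in the sources used here. Mapping and FPKM estimation were not redone. PCR amplification and the division of reads between homeologs can both shift FPKM values.

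Both files hold 51037 rows. Values were summed over rows that share a gene name, leaving 49349 names and a value above 0 for 3148 names in replicate 1 and 2873 in replicate 2. Names were split on commas, a final .L or .S was removed and the symbol was matched in lower case. The 10 stathmin and gap43 names stand on 1 row each, and all 10 carry a symbol of the RefSeq gene table for assembly Xenopus_laevis_v10.1, used for names only. Detection meant over 1 FPKM in both libraries, the limit of the study's gene ontology analysis, and log2(FPKM + 1) was used as the log scale. Ranks count from the highest FPKM, with ties at their mean rank. FPKM values hold no counts, so read depth is unknown and no counting interval or detection floor was computed. The 5th percentile of the values above 0 was 0.0772 and 0.302 FPKM in replicates 1 and 2.

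Homeolog pairs were symbols with exactly 1 L and 1 S name, 5764 in all. No test was made, since there is 1 condition. Genes named in the text are the 10 names, the listed partner and marker genes over 1 FPKM in both libraries, and the 3 names nearest in level to each detected name. The values of some of these genes are not reported here. The 5 genes and the lists were chosen with earlier results of these data known, and genes named as listed at 0 or under the limit were picked after their values were seen. Alternatives were the detection limit, the pseudocount, the handling of rows and homeologs, the background and each library alone. Computation used pandas 2.3.3 and numpy 2.4.6 under Python 3.11.15, and plots were drawn with matplotlib 3.10.9.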

Additional observations from a re-analysis of the deposited data

How the results depend on the processing

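The count of 4 names over 1 FPKM in both libraries was also found with a limit of 0, with the highest row of each name and in each library alone, and was 3 with limits of 5 and 10 FPKM, which gap43.L did not reach. The order stmn2, stmn1 and gap43 was the same with homeologs summed, averaged or represented by the higher one, and in each library alone. The share of summed FPKM, 0.121% over both libraries, ranged from 0.115% to 0.126% in single libraries and was 0.161% without the 10 highest names, by construction. The mean L minus S of stmn2, -1.24 (log2), was 0.10 without replicate 2 and -2.58 without replicate 1. With each library divided by its median, a setting chosen after seeing the data, the difference of gap43.L between libraries, 0.095, was -0.0437. The listed partner and marker names over 1 FPKM in both libraries, 30 of 276, numbered 38 with a limit of 0, 21 with a limit of 10 FPKM, and 32 to 35 in single libraries. No paired analysis was possible because there is a single group. The limits are those of 2 amplified libraries of unknown depth: a gene listed at 0 may have been missed, and the L and S shares of stmn2 rest on which library is read.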
